A study of Mus musculus with 15 samples.

Results

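The 10 genes described here are 3 ligands of the transforming growth factor beta family (Tgfb1, Tgfb2 and Tgfb3), 3 of their receptors (Tgfbr1, Tgfbr2 and Tgfbr3) and 4 Smads (Smad2, Smad3, Smad4 and Smad7), out of 33058 gene names measured in whole kidney. They were chosen by name. Their level was the sum of FPKM (sequenced fragments scaled to transcript length and to the mapped fragments of the library) over all transcripts that carried the gene's name and either matched a known transcript, lay within one, shared a splice junction with one or overlapped its exons on the same strand. This gave 52 of the 129029 listed transcripts, namely 39 known and 13 assembled from the reads. The kidneys came from 15 male mice, with 5 mice in each of 3 age groups, aged 3, 12 or 24 months by the labels, which give the strain as C57BL/6 (C57BL/6J in the study's methods). No mouse carried a transgene or received a treatment according to the labels, housing was at a common temperature on standard chow, and the labels list 1 RNA library for each numbered mouse, although the study's methods also speak of pooled kidney RNA. The mice are named by the numbers of their labels, 5 to 9 at 3 months, 17 to 21 at 12 months and 31 to 35 at 24 months. The study compared young with old kidneys, and the 12-month-old mice are set beside them here, so the 3 comparisons share mice.

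TGF-beta ligands are secreted bound to a latency peptide and must be released before they can bind. The active ligand brings the type II receptor (Tgfbr2) and the type I receptor (Tgfbr1) together, and the type I receptor then phosphorylates Smad2 and Smad3, which enter the nucleus with Smad4 and regulate transcription. Tgfbr3, or betaglycan, presents ligand, above all TGF-beta 2, to the signalling receptors. Smad7 is induced by the pathway and inhibits it at the type I receptor. In the kidney the pathway is known as a driver of matrix production by fibroblasts and of tubulointerstitial fibrosis. Its activity is set largely by ligand release and by phosphorylation, which RNA levels do not measure.

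The ligand genes lie on separate chromosomes of the GRCm38 assembly, Tgfb1 at chr7:25687002-25705077 (plus strand), Tgfb2 at chr1:186622792-186705989 (minus) and Tgfb3 at chr12:86056744-86079041 (minus). The receptor genes span chr4:47353222-47414931 (Tgfbr1, plus), chr9:116084293-116175265 (Tgfbr2, minus) and chr5:107105842-107289595 (Tgfbr3, minus). Smad3 spans chr9:63644507-63758179 (minus), on the same chromosome as Tgfbr2, and the other 3 Smad genes lie on chromosome 18. These spans cover the listed transcripts of each gene.

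The libraries held between 5.03 and 6.13 Gb of aligned bases at 3 months, between 5.84 and 8.03 Gb at 12 months and between 6.07 and 7.33 Gb at 24 months. The median library had 0.0165 Mb of bases on Tgfb2 and 0.0159 Mb on Tgfb3, against 0.0938 Mb on Tgfb1 and 0.601 Mb on Tgfbr1, so the minor ligands rest on the fewest reads. Markers of proximal tubule summed to between 1958 and 2557 FPKM in every mouse and those of distal nephron and collecting duct to between 1135 and 1509 FPKM, as the kidney label requires. Markers of tissue beside the kidney (adrenal gland, fat and urothelium) summed to at most 9.83 FPKM. Factors that scale the libraries to a common median ratio lay between 0.915 and 0.985 at 3 months and between 1.01 and 1.11 in all older mice, so the scale of the libraries moved with age. The comparisons were also fitted on values rescaled in this way.

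All 10 genes were above 0 in every mouse. FPKM is per length, so a gene's sum depends on which of its transcripts the reads were assigned to, and the order below holds on that scale only. Smad3, whose most abundant transcript has 53030 bases, had a median of 1.15 Mb of bases, against 0.439 Mb for Tgfbr3. In FPKM the mean levels over the 15 mice ran from Tgfbr3 (16.2 FPKM) and Tgfbr1 (14.3) through Smad4 (11.9), Tgfbr2 (9.44), Smad2 (9.22), Tgfb1 (6.66), Smad3 (5.80) and Smad7 (4.51) to Tgfb2 (0.861) and Tgfb3 (0.772). The first place of Tgfbr3 rests on 3 high mice described below. Over the other 12 mice its mean was 13.97 FPKM, under the 14.3 FPKM of Tgfbr1, and its median over all 15 mice was 14.6 FPKM, against 14.7 FPKM for Tgfbr1. Neighbours in this order mostly overlapped. Tgfbr3 was above Tgfbr1 in 9 of 15 mice, Tgfbr2 above Smad2 in 10 and Tgfb2 above Tgfb3 in 8. Clear steps in the order were those from Smad2 to Tgfb1 and from Smad7 to Tgfb2, which held in 15 of 15 mice. On the same scale the receptors together reached a mean of 37.8 ± 5.29 FPKM at 3 months (SD, n = 5), the Smads 29.9 ± 3.08 FPKM and the ligands 6.69 ± 1.61 FPKM.

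**Figure D1:**
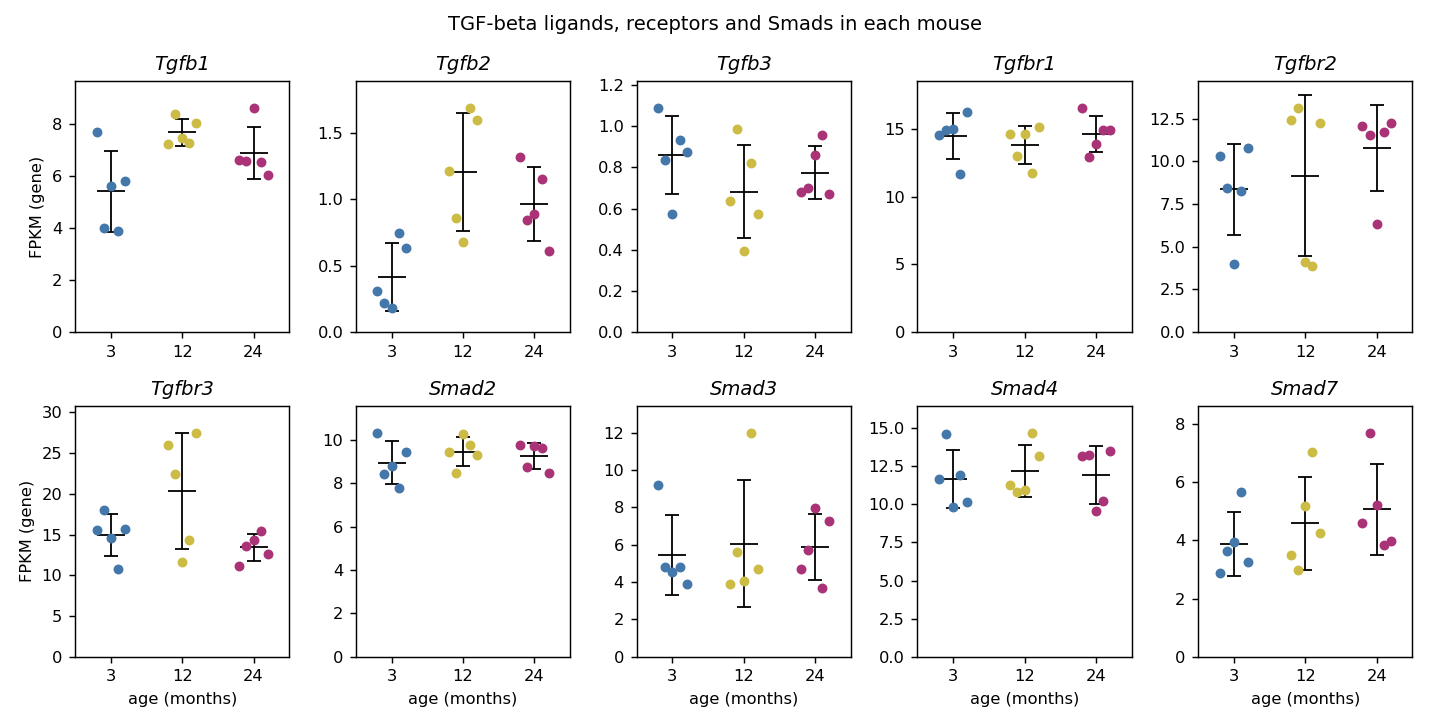
FPKM of each gene (vertical axis, from 0) in each mouse, by age in months (horizontal axis). Points are mice, and the black marks are the mean and SD of 5 mice. The 3-month-old and older mice overlap in all 10 panels, with the least overlap for Tgfb2.

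No member passed an adjusted p of 0.05 in any comparison (limma on log2(FPKM + 1), Benjamini-Hochberg adjusted over all genes). For 24 against 3 months, 386 of 31755 genes tested did so, or 1.22%. For 12 against 3 months the share was 0.25% (79 of 31637), and for 24 against 12 months it was 0.0031% (1 of 32282). At an unadjusted p under 0.05, 1 member, Tgfb2, was found for 24 against 3 months, where 14.9% of all genes were found (4725). Tgfb2 and Tgfb1 were found for 12 against 3 months, where 14.3% of all genes were found (4537), and no member for 24 against 12 months, where 6.43% were (2075). These shares of the members are near those of all genes. In both comparisons with 3 months, 8 of the 10 members had a positive log2 fold change, with medians of 0.08 and 0.08 on the log2(FPKM + 1) scale, and the medians of genes with a mean of at least 1 FPKM were 0.05 and 0.08. No member had ages that did not overlap, against 4.73% of all genes for 24 against 3 months, 4.11% for 12 against 3 months and 1.07% for 24 against 12 months.

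The count for 24 against 3 months moved with single mice. Without 3-month mouse 8, Tgfb2, Smad7 (unadjusted p = 0.0406) and Tgfbr3 (unadjusted p = 0.0467) were under 0.05, making 3 members, and without 3-month mouse 5, Tgfb2 and Tgfb1 (unadjusted p = 0.0116) were, making 2. For 24 against 12 months, 1 member was under 0.05 without 12-month mouse 19 or 12-month mouse 20 (Tgfbr3 in both) and without 24-month mouse 33 (Tgfb1, unadjusted p = 0.00941).

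**Figure D2:**
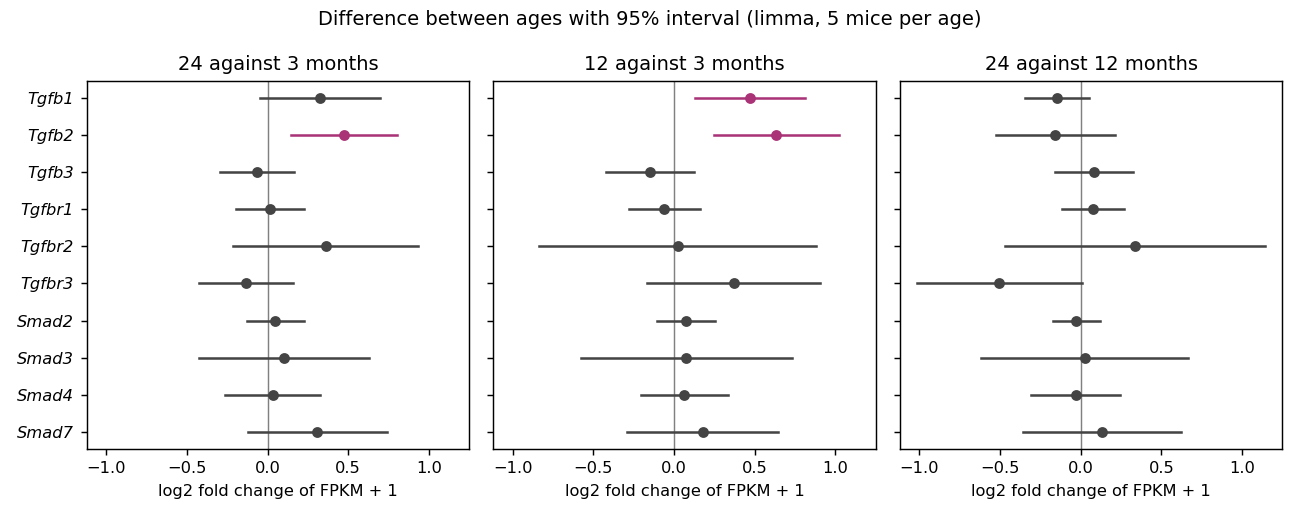
Log2 fold change of FPKM + 1 (horizontal axis, older minus younger) with its 95% interval from limma for the 10 genes in the 3 comparisons. Intervals in purple, of Tgfb2 at 24 against 3 months and of Tgfb1 and Tgfb2 at 12 against 3 months, lie apart from 0 before adjustment, and none of the 10 genes passed after adjustment.

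Tgfb1 is the most abundant of the ligands in these kidneys. At 3 months its values in mice 5 to 9 were 7.71, 4.002, 5.63, 3.88 and 5.83 FPKM. At 12 months they were 7.23, 8.41, 7.48, 7.27 and 8.03 FPKM. At 24 months they were 6.63, 6.60, 8.63, 6.54 and 6.05 FPKM. The older mice lay in a narrow band above 6 FPKM, and the 3-month-old mice were spread from below it to within it, with only mouse 5 inside the range of the 12-month-old mice. The means were 5.41 ± 1.57, 7.69 ± 0.516 and 6.89 ± 0.9998 FPKM (SD, n = 5). The log2 fold change was 0.47 (SE 0.15, unadjusted p = 0.0124, limma adjusted p = 0.209) for 12 against 3 months and 0.32 (SE 0.17, unadjusted p = 0.0790, limma adjusted p = 0.409) for 24 against 3 months. With the libraries rescaled to a common median ratio these became 0.35 (unadjusted p = 0.0612) and 0.22 (unadjusted p = 0.237).

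Tgfb2, the ligand that depends most on betaglycan, stayed below 2 FPKM in every mouse. In the 3-month-old mice 5 to 9 it was 0.310, 0.218, 0.181, 0.743 and 0.631 FPKM. In the 12-month-old mice 17 to 21 it was 1.21, 0.858, 0.678, 1.69 and 1.60 FPKM. In the 24-month-old mice 31 to 35 it was 1.32, 0.843, 0.885, 1.15 and 0.607 FPKM. Mice 8 and 9 were the only 3-month-old mice that reached the lowest of the older mice. The means were 0.417 ± 0.254, 1.21 ± 0.443 and 0.962 ± 0.278 FPKM (SD, n = 5), a ratio of 2.90 at 12 months and 2.31 at 24 months to the mean at 3 months. On the log2(FPKM + 1) scale, which understates the change of so low a gene, the fold change was 0.63 (SE 0.17, unadjusted p = 0.00458, limma adjusted p = 0.144) for 12 and 0.48 (SE 0.15, unadjusted p = 0.00915, limma adjusted p = 0.164) for 24 against 3 months.

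The unadjusted p of Tgfb2 for 24 against 3 months stayed between 0.00379 and 0.0254 when each of the 10 mice was left out in turn. It was 0.0999 when an assembled transcript of 349 bases inside an intron of Tgfb2 was added to the gene. That transcript was listed at 0 in 8 of 15 mice and had means of 0.241, 0.847 and 0.180 FPKM at 3, 12 and 24 months. Of the 6 Tgfb2 transcripts under the rule, a protein-coding one (ENSMUST00000045288, 5116 bases) gave 42.4% of the summed FPKM and a retained-intron one (ENSMUST00000194960, 898 bases) 36.3%. The coding transcript had means of 0.206, 0.413 and 0.476 FPKM at 3, 12 and 24 months, with an unadjusted p of 0.0882 for 24 against 3 months. The retained-intron transcript was listed at 0 in 7 mice and had means of 0.157, 0.539 and 0.242 FPKM.

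Tgfb3 had the lowest level of the 10 genes and rests on 1 transcript of 3384 bases. It ranged from 0.572 to 1.09 FPKM at 3 months, from 0.395 to 0.984 at 12 months and from 0.672 to 0.958 at 24 months. The ages overlapped over most of their range, and its log2 fold change for 24 against 3 months was -0.07 (95% interval -0.29 to 0.16, limma adjusted p = 0.779). Within a mouse, Tgfb1 made up 69.9% to 88.2% of the FPKM of the 3 ligands at 3 months and 75.6% to 83.2% at 24 months. The mean share was 80.3% and 79.8%, a difference of -0.434 percentage points (exact permutation test, 2-sided, p = 0.905).

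The stretches before the starts of the ligand genes with an unadjusted p under 0.05 are shown to set their sequences side by side, and were picked after their values were seen. RefSeq on GRCm38.p6 gives a promoter entry for 5 of the 10 members. The 250 bases that end just before the annotated start are printed in the direction of transcription, chr7:25686752-25687001 (plus strand) for Tgfb1 and chr1:186705990-186706239 (minus strand) for Tgfb2. Capitals mark matches, on either strand, to the GC box GGGCGG bound by Sp1, to CAGAC, the core of the Smad-binding element, and to the E-box CACGTG.
Tgfb1: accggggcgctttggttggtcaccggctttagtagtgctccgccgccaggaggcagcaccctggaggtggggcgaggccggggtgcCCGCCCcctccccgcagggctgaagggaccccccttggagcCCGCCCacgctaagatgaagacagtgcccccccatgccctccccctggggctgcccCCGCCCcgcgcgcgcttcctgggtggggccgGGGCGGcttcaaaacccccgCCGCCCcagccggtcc
Tgfb2: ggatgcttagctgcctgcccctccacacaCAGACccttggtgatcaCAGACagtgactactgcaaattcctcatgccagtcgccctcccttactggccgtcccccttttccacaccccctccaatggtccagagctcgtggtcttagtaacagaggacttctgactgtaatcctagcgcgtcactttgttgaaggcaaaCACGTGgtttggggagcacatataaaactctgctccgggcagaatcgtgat
The Tgfb1 stretch held 5 GC boxes and was 75.2% G and C, and the Tgfb2 stretch held 2 CAGAC sequences, 1 CACGTG and no GC box and was 53.6% G and C. Of the 32851 RefSeq stretches of the same length, 32.7% held a GC box, 42.2% CAGAC and 6.02% CACGTG.

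Among the receptors, Tgfbr1 (ALK5, the type I receptor) overlapped between ages on the FPKM scale. It ranged from 11.7 to 16.3 FPKM at 3 months, from 11.8 to 15.2 at 12 months and from 12.9 to 16.6 at 24 months. The means were 14.5 ± 1.71, 13.8 ± 1.42 and 14.6 ± 1.35 FPKM (SD, n = 5), and the ages overlapped almost completely. The log2 fold change for 24 against 3 months was 0.01 (95% interval -0.20 to 0.23, limma adjusted p = 0.953). Its sign turned to -0.09 with the libraries rescaled to a common median ratio and to -0.15 with known transcripts alone. Weighted by transcript length it was 0.39 (unadjusted p = 0.0382, limma adjusted p = 0.297), and 0.46 for 12 against 3 months (unadjusted p = 0.0401, limma adjusted p = 0.313). That weighting, chosen after the data were seen, counts the assembled transcript MSTRG.24557.6 of 33358 bases.

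Tgfbr2 (the type II receptor, which binds the ligand first) had low mice at every age when set against the others of that age. At 3 months its values were 10.3, 8.46, 4.01, 8.25 and 10.8 FPKM in mice 5 to 9. At 12 months they were 12.4, 13.1, 4.12, 3.88 and 12.3 FPKM in mice 17 to 21. At 24 months they were 12.1, 11.6, 6.31, 11.7 and 12.2 FPKM in mice 31 to 35. Mice 7, 19, 20 and 33 lay between 3.88 and 6.31 FPKM, and the other 11 between 8.25 and 13.1 FPKM, with no mouse between these ranges. These low mice were picked after their values were seen, as those under 7 FPKM. Mouse 33, at 6.31 FPKM, lay between mice 7, 19 and 20, at 3.88 to 4.12 FPKM, and the rest, so over all ages the split is not sharp. The means by age were 8.36 ± 2.68, 9.17 ± 4.73 and 10.8 ± 2.52 FPKM (SD, n = 5), and the log2 fold change for 24 against 3 months was 0.36 (95% interval -0.21 to 0.93, limma adjusted p = 0.569). The Tgfbr2 value is that of 1 listed transcript, ENSMUST00000061101, of 8092 bases. A further protein-coding transcript in the GENCODE M21 annotation, ENSMUST00000035014, is not among the listed transcripts.

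Tgfbr3 (betaglycan, the co-receptor) had its highest values in the 12-month-old mice. In mice 5 to 9 it was 15.6, 17.99, 14.6, 10.8 and 15.7 FPKM. In mice 17 to 21 it was 26.0, 22.4, 11.6, 14.3 and 27.5 FPKM. In mice 31 to 35 it was 11.1, 13.6, 14.4, 15.4 and 12.6 FPKM. Mice 17, 18 and 21 stood above all others, at 22.4 to 27.5 FPKM against 10.8 to 17.99 FPKM in the other 12 mice. The log2 fold change was 0.37 (SE 0.24, limma adjusted p = 0.525) for 12 against 3 months and -0.50 (SE 0.23, unadjusted p = 0.0525, limma adjusted p = 0.782) for 24 against 12 months. It was -0.13 (95% interval -0.42 to 0.16, limma adjusted p = 0.666) for 24 against 3 months.

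The high mice of Tgfbr3 differed from the others in which transcript was listed as abundant, a split that was seen after the values were known. ENSMUST00000138469, an annotated processed transcript of 2849 bases, was at 14.5, 10.4 and 13.9 FPKM in mice 17, 18 and 21 and at no more than 0.138 FPKM in the other 12. The longer assembled transcript MSTRG.28148.1 (9129 bases) was at 0.301 to 1.10 FPKM in those 3 mice and had a median of 5.67 FPKM in the other 12. In mouse 19 another assembled transcript, MSTRG.28148.3 (8609 bases), was at 7.01 FPKM, against at most 0.574 FPKM in the other 14 mice. The same fragments give a higher FPKM on a shorter transcript. Multiplied by transcript length in kilobases and summed, which gives fragments on the library scale of FPKM but without division by length, Tgfbr3 was at 51.9 to 68.7 in mice 17, 18 and 21 and at 54.3 to 94.5 in the others. On that scale the log2 fold change was -0.03 (unadjusted p = 0.872) for 12 against 3 months and -0.04 (unadjusted p = 0.793) for 24 against 12 months. The high values of mice 17, 18 and 21 on the FPKM scale were not seen in the fragments assigned to the gene. This scale was chosen after the data were seen. Over the 15 mice, 38.1% of the Tgfbr3 FPKM came from ENSMUST00000146591, annotated as a retained-intron transcript. The protein-coding ENSMUST00000031224 of GENCODE M21 is not among the listed transcripts.

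**Figure D3:**
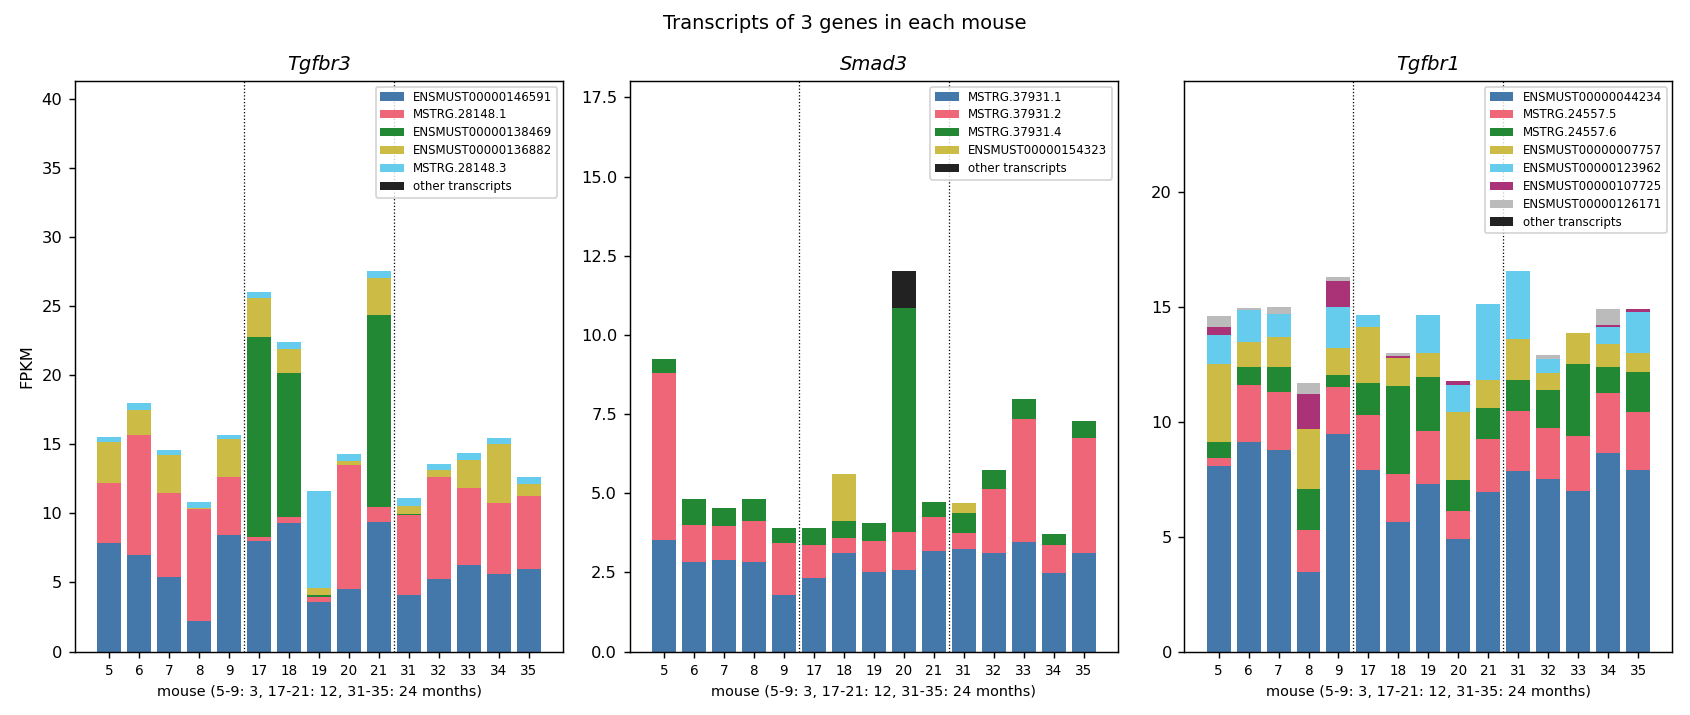
FPKM of each transcript (stacked, vertical axis) in each mouse (horizontal axis, dotted lines between ages) for Tgfbr3, Smad3 and Tgfbr1. The green segment of Tgfbr3 is ENSMUST00000138469, present in mice 17, 18 and 21, and the tall segments of Smad3 in mice 5 and 20 are different assembled transcripts.

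The log2 ratio of Tgfbr3 to Tgfbr2 FPKM within a mouse, betaglycan to the type II receptor, was 0.89 ± 0.60 at 3 months, 1.28 ± 0.43 at 12 months and 0.35 ± 0.51 at 24 months (SD, n = 5). The 12-month value holds the high Tgfbr3 FPKM of mice 17, 18 and 21, which was not seen in the fragments, and the low Tgfbr2 of mice 19 and 20. No ratio on the length-weighted scale is given here. The difference of -0.55 between 24 and 3 months did not pass the exact permutation test (2-sided, p = 0.159, where the smallest p that 5 against 5 mice can give is 0.00794). Without 24-month mouse 33, which is 1 of the low mice of Tgfbr2, the difference was -0.76 (exact permutation p = 0.0397), and without 3-month mouse 7, another of them, it was -0.31 (exact permutation p = 0.325). With any other mouse left out the difference lay between -0.67 and -0.43 and the exact permutation p between 0.111 and 0.302.

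The receptor-activated Smads showed no difference between ages beyond the spread of the mice. Smad2 was the steadiest of the 10 genes, between 7.78 and 10.3 FPKM at 3 months, between 8.47 and 10.2 at 12 months and between 8.48 and 9.75 at 24 months. Its log2 fold change for 24 against 3 months was 0.05 (95% interval -0.13 to 0.23, limma adjusted p = 0.794), and it was -0.06 with the libraries rescaled. Of its FPKM, 78.2% came from the protein-coding transcript ENSMUST00000168423. An assembled transcript of 996 bases inside a Smad2 intron, which the rule leaves out, was listed at 0 in 11 of 15 mice, among them all 12-month-old mice, and had means of 0.695 and 2.15 FPKM at 3 and 24 months.

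Smad3, which with Smad4 binds the promoters of many matrix genes, had outlying mice on the FPKM scale. In mice 5 to 9 it was 9.23, 4.82, 4.55, 4.81 and 3.89 FPKM. In mice 17 to 21 it was 3.91, 5.61, 4.06, 12.0 and 4.72 FPKM. In mice 31 to 35 it was 4.69, 5.73, 7.97, 3.70 and 7.29 FPKM. Mice 5 and 20 stood above the rest in FPKM, and the other 13 lay between 3.70 and 7.97 FPKM at all ages. Multiplied by transcript length and summed as for Tgfbr3, a scale chosen after the data were seen, the other 13 were at 113.2 to 222.9. On that scale mouse 20 was at 208.3, within this range, and mouse 5 at 235.9, above it. The log2 fold change for 24 against 3 months was 0.10 (95% interval -0.42 to 0.63, limma adjusted p = 0.856). In mouse 5 the assembled transcript MSTRG.37931.2 (8635 bases) was at 5.29 FPKM, against at most 3.86 FPKM in the other 14 mice, and in mouse 20 MSTRG.37931.4 (8305 bases) was at 7.08 FPKM, against at most 0.835 FPKM. The most abundant Smad3 transcript, MSTRG.37931.1, is 53030 bases long and was between 1.80 and 3.52 FPKM in all mice. Assembled transcripts gave between 73.5% and 100% of the Smad3 level, since 1 known transcript of 744 bases is listed and 3 further protein-coding transcripts of GENCODE M21 are not.

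Smad4, the partner that the receptor-activated Smads share, ranged from 9.82 to 14.6 FPKM at 3 months, from 10.8 to 14.7 at 12 months and from 9.53 to 13.5 at 24 months. Its log2 fold change for 24 against 3 months was 0.03 (95% interval -0.26 to 0.32, limma adjusted p = 0.925). Its sign depended on the processing. Rescaling the libraries gave -0.08, and weighting by transcript length gave -0.36 (unadjusted p = 0.0292, limma adjusted p = 0.265). The length-weighted value counts an assembled transcript of 14683 bases, MSTRG.17200.1, whose means were 2.52, 2.15 and 1.21 FPKM at 3, 12 and 24 months (unadjusted p = 0.0535 for 24 against 3 months).

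Smad7, the inhibitory Smad, had its highest value in a 24-month-old mouse. In mice 5 to 9 it was 2.87, 3.65, 3.96, 5.68 and 3.25 FPKM. In mice 17 to 21 it was 3.49, 2.99, 5.18, 7.03 and 4.25 FPKM. In mice 31 to 35 it was 4.60, 7.71, 5.21, 3.86 and 3.99 FPKM. All 24-month-old mice were above 3 of the 5 young mice or more, but mouse 8 at 3 months was above 4 of the 5 old ones. The means were 3.88 ± 1.08, 4.59 ± 1.59 and 5.07 ± 1.57 FPKM (SD, n = 5), and the log2 fold change for 24 against 3 months was 0.31 (SE 0.19, unadjusted p = 0.142, limma adjusted p = 0.510). The protein-coding transcript ENSMUST00000026999 had means of 0.903, 0.958 and 1.75 FPKM (unadjusted p = 0.161), and an assembled transcript of 8157 bases gave 61.6% of the Smad7 level.

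Relative to the Smads it opposes, Smad7 did not differ detectably. The log2 ratio of Smad7 to the sum of Smad2 and Smad3 was -1.91 ± 0.58 at 3 months, -1.80 ± 0.30 at 12 months and -1.62 ± 0.42 at 24 months (SD, n = 5). The difference between 24 and 3 months was 0.29 (exact permutation test, 2-sided, p = 0.341). The 3-month-old mice ranged from -2.77 to -1.15, and the 24-month-old mice from -1.98 to -0.91.

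At the level of single transcripts, 51 transcripts of the members were tested for 24 against 3 months, and 0 passed an adjusted p of 0.05 by limma, where 24 of 124719 transcripts did (0.0192%). At an unadjusted p under 0.05 there were 2, or 3.92% of the members' transcripts, against 7.9% of all transcripts (9855). These were the protein-coding Smad2 transcript ENSMUST00000171256 (log2 fold change -0.27, unadjusted p = 0.0238), with means of 0.238 and 0.0157 FPKM at 3 and 24 months, and the assembled Tgfbr1 transcript MSTRG.24557.6 (log2 fold change 0.50, unadjusted p = 0.0480), with means of 0.980 and 1.80 FPKM. The latter is 33358 bases long, longer than any known Tgfbr1 transcript listed. Without 24-month mouse 32 the number was 4, and it was 1 without 3-month mouse 6, 3-month mouse 9 or 24-month mouse 35. The share of a gene's FPKM from the transcript with the highest mean over the 15 mice was compared between 24 and 3 months for the 8 members with more than 1 transcript, and the smallest of the 8 p-values was 0.476 (exact permutation test, 2-sided, unadjusted), for Smad7. The 12-month-old mice were not in these tests, and the transcript with the highest mean at that age was another one for Tgfbr3 (ENSMUST00000138469, 7.79 FPKM at 12 months against 0.0126 and 0.0243 at 3 and 24 months) and for Tgfb2 (ENSMUST00000194960). For Tgfb1 this share was 84.3% ± 8.49 at 3 months and 86.1% ± 6.55 at 24 months (SD, n = 5).

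The same libraries held 15 circular RNAs from 5 of the members, made by joining the end of an exon to the start of the same or an earlier one. Of these, 9 came from Smad4, 2 each from Tgfbr2 and Tgfbr3, and 1 each from Tgfb1 and Tgfbr1. None passed an adjusted p of 0.05 for 24 against 3 months (edgeR quasi-likelihood test), where 13.3% of the 11924 circular RNAs tested did (1582), and DESeq2 also gave 0. At an unadjusted p under 0.05 edgeR gave 1 of 15, against 28.8% of all circular RNAs (3440), and DESeq2 gave 1. How the authors counted circular RNAs was not given in the sources used here. Circles of Smad4 overlap in their exons, so they are not independent.

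The circle with that p was the most abundant, circRNA4686 of Tgfbr2 (chr9:116105034-116131713 on GRCm38). It lay between 93.4 and 142.6 CPM (counts scaled to a common library total after TMM normalisation) at 3 months, between 153.0 and 198.5 at 12 months and between 137.7 and 175.8 at 24 months. All 12-month-old mice were above all 3-month-old mice, and the 24-month-old mice overlapped with both. The 3- and 12-month-old mice were also apart for circRNA6919 of Tgfbr2 (7.90 to 12.9 and 13.2 to 18.5 CPM) and circRNA542 of Smad4 (5.46 to 6.92 and 7.13 to 9.66 CPM). Circles were not tested for 12 against 3 months, and the share of all circular RNAs apart in this way was not computed. The log2 fold change of circRNA4686 for 24 against 3 months was 0.31 (unadjusted p = 0.0284, edgeR adjusted p = 0.123). In mice 7, 19, 20 and 33, which were low in linear Tgfbr2, the circle was at 139.2 to 168.5 CPM, within the 93.4 to 198.5 CPM of the other 11 mice. For circRNA6919 these mice were at 10.5 to 16.6 CPM, within the 7.90 to 18.5 CPM of the other 11. Over all ages the low mice of the Tgfbr2 transcript did not stand apart in either circle. Within its age, mouse 20 was the lowest for circRNA4686 (153.0 CPM) and circRNA6919 (13.2 CPM), and mouse 33 for circRNA6919 (11.5 CPM). A difference within an age was not tested.

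The circles of the other receptors differed in their spread. Within an age the standard deviation of circRNA4345 of Tgfbr3 (chr5:107137530-107149958) was 2.24% to 8.96% of its mean, against 12.4% to 34.8% for Tgfbr3 FPKM. That of the less abundant circRNA5333 of Tgfbr3, added after its values were seen, was 14.2% to 34.4% of its mean. circRNA4345 was at 96.6 to 120.7 CPM in mice 17, 18 and 21 and at 100.6 to 121.6 CPM in the other 12. circRNA814 of Tgfbr1 (chr4:47396355-47407052) had means of 117.2 ± 12.3, 120.5 ± 2.18 and 127.7 ± 6.37 CPM at 3, 12 and 24 months (SD, n = 5; log2 fold change for 24 against 3 months 0.12, edgeR unadjusted p = 0.171). The 9 circles of Smad4 had log2 fold changes between -0.13 and 0.14, with circRNA540 at -0.03 and circRNA9488 at -0.02. circRNA3426 of Tgfb1 (chr7:25694223-25697272) averaged 22.4 ± 6.13, 32.2 ± 4.91 and 28.2 ± 5.07 CPM (SD, n = 5). Its log2 fold change for 24 against 3 months was 0.33 (edgeR unadjusted p = 0.0844). Like linear Tgfb1 it was lowest in 3-month mouse 8 and was the highest 24-month value in mouse 33.

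**Figure D4:**
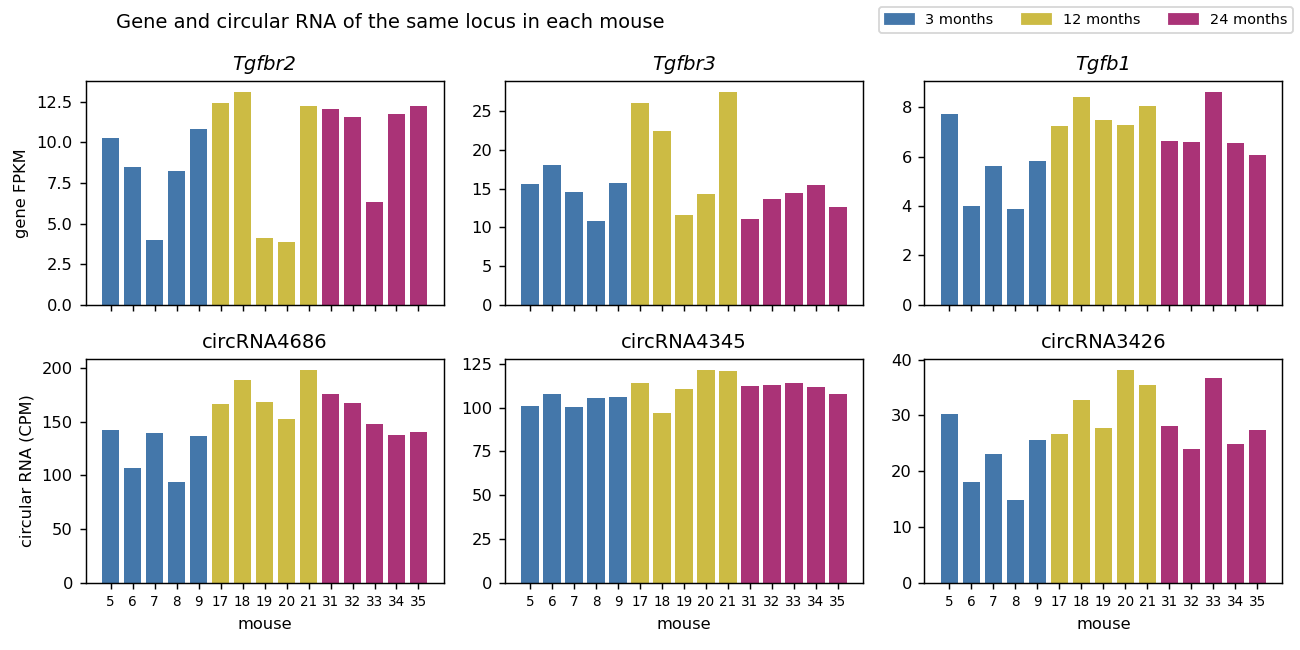
Gene FPKM (upper row) and CPM of a circular RNA of the same gene (lower row) in each of the 15 mice, coloured by age, for Tgfbr2, Tgfbr3 and Tgfb1. The low bars of Tgfbr2 in mice 7, 19, 20 and 33 and the high bars of Tgfbr3 in mice 17, 18 and 21 do not stand apart in the circular RNA over all ages. Mouse 20 was the lowest 12-month-old mouse for the Tgfbr2 circle.

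With each age centred on its mean, the genes whose log2(FPKM + 1) followed a member most closely over the 15 mice had Pearson r between 0.84 and 0.93, out of about 13445 genes with a mean of at least 1 FPKM. These were Nln (0.88) and Sf3b1 (0.88) for Tgfb1, Hist1h3e (0.89) and Msi2 (0.85) for Tgfb2, and Actn1 (0.86) and Tnc (0.84) for Tgfb3. For the receptors they were Evc (0.93) and Myo1e (0.92) for Tgfbr1, Maea (0.89) and Tmem246 (0.88) for Tgfbr2, and Wbscr27 (0.90) and Slc35b1 (0.88) for Tgfbr3. For the Smads they were Irak3 (0.86) and Srp9 (0.85) for Smad2, Brms1 (0.86) and Prrc1 (0.84) for Smad3, Ubtd1 (0.88) and Tmem14c (0.88) for Smad4, and Fam160b2 (0.88) and Rwdd1 (0.84) for Smad7. No gene was named for more than 1 member. All values come from the same 15 libraries and share their depth and scaling. Each named gene is among the best of about 13445, and the r that unrelated genes would reach was not tested. For Tgfbr3 and Smad3 the mice described above as high in FPKM enter these values.

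The rest of the pathway was read from 7 lists with 113 measured genes. For 24 against 3 months 2 of these passed an adjusted p of 0.05, or 1.77%, near the 1.22% of all genes, both in the list on latency and activation (15 genes, median log2 fold change 0.10). Itgb6, the beta-6 subunit of an integrin that releases latent TGF-beta, fell. It was 31.3, 34.8, 28.0, 36.6 and 37.6 FPKM in mice 5 to 9, 34.9, 27.7, 38.8, 38.5 and 45.2 in mice 17 to 21, and 25.7, 24.1, 19.3, 18.8 and 20.1 in mice 31 to 35. All 24-month-old mice were below all others, and the log2 fold change was -0.62 (SE 0.11, limma adjusted p = 0.0372). Ltbp2, a protein of the latent TGF-beta binding family that does not itself bind the ligand's latency peptide, rose. It was 0.131, 0.0896, 0.179, 0.114 and 0.233 FPKM at 3 months and 0.402, 0.308, 0.399, 0.375 and 0.501 FPKM at 24 months (log2 fold change 0.28, SE 0.05, limma adjusted p = 0.0317).

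Both calls stood near the threshold. Leaving out each mouse in turn kept the adjusted p of Itgb6 between 0.0423 and 0.0873, under 0.05 in 3 of 10 cases (without mouse 7, 31 or 32). That of Ltbp2 stayed between 0.0277 and 0.0753, under 0.05 in 2 of 10 (without mouse 9 or 32). With all mice kept, the limma adjusted p was under 0.05 in 8 of 9 alternatives to the values, filter or model for Itgb6. For Ltbp2 it was in 5 of 8. The settings that did not pass follow. With all 15 mice in 1 fit, where the spread of the 12-month-old mice enters, the limma adjusted p of Ltbp2 was 0.596, and it was 0.0747 with a pseudocount of 0.1 and 0.0622 with a robust variance prior. With known transcripts alone the log2 fold change of Itgb6 was -0.14 (unadjusted p = 0.691). Assembled transcripts made up 50.2% to 87.1% of its FPKM in the 15 mice. Ltbp2 was also at 0.446 to 2.97 FPKM at 12 months, above all 3-month-old mice (unadjusted p = 0.00959, limma adjusted p = 0.192).

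In the other lists no gene passed after adjustment in any comparison. Over all 7 lists, 17 genes were higher and 8 lower at an unadjusted p under 0.05 for 24 against 3 months, 29 and 9 for 12 against 3 months, and 4 and 11 for 24 against 12 months. This was 22.1%, 33.6% and 13.3% of the genes tested, where 14.9%, 14.3% and 6.43% of all genes were under 0.05. Of genes with a mean of at least 1 FPKM, 2524 of 13446, 2477 of 13443 and 1139 of 13444 were. The lists also hold genes below that mean. Among 17 other ligands of the superfamily 1 was higher and 1 lower (median log2 fold change 0.06) for 24 against 3 months, namely Bmp5 (0.0320 and 0.0769 FPKM, unadjusted p = 0.0218) and Gdf15, a stress-induced cytokine (5.20 ± 1.94 and 2.91 ± 0.734 FPKM, unadjusted p = 0.0206). Bmp1 (0.25, unadjusted p = 0.0619), the procollagen proteinase named for the family it does not belong to, and Inhbc (-0.01) came next. Of 11 other receptors 3 were higher (median -0.01). Acvr2b, an activin type II receptor, had means of 2.23 ± 1.32 and 4.97 ± 1.66 FPKM (log2 fold change 0.92, unadjusted p = 0.00851) and Acvrl1, the endothelial ALK1, of 3.82 ± 0.323 and 4.56 ± 0.303 FPKM (unadjusted p = 0.0181). Bmpr1a had a log2 fold change of -0.51 (unadjusted p = 0.0577), and Acvr1 of -0.07.

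Of the 4 other Smads 1 was higher (median 0.14), the BMP-regulated Smad9, with means of 0.398 ± 0.141 and 0.763 ± 0.107 FPKM that did not overlap (unadjusted p = 0.00331, limma adjusted p = 0.102). Smad1 had a log2 fold change of 0.17 and Smad5 of -0.00. Of 23 Smad regulators and partners 2 were higher and 3 lower (median -0.04). Smurf1, a ubiquitin ligase for Smads and receptors, had means of 4.92 ± 0.517 and 6.86 ± 0.957 FPKM (unadjusted p = 0.00221, limma adjusted p = 0.0852), and the phosphatase Ppm1a 14.2 ± 1.59 and 16.98 ± 1.82 FPKM (unadjusted p = 0.0298). The repressor Tgif1 had means of 7.17 ± 2.67 and 3.02 ± 1.44 FPKM (unadjusted p = 0.00394, limma adjusted p = 0.110), and the coactivator Crebbp 17.2 ± 2.19 and 14.3 ± 0.828 FPKM (unadjusted p = 0.0211). Of 15 extracellular antagonists 4 were higher and 1 lower (median 0.04). The proteoglycans Dcn and Bgn, which bind TGF-beta, had log2 fold changes of 0.70 (unadjusted p = 0.0248) and 0.47 (unadjusted p = 0.0256), Fstl3 had -0.34 (unadjusted p = 0.0171) and Nog -0.13.

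Of 28 genes known as transcriptional targets of the pathway, 4 were higher and 1 lower for 24 against 3 months at an unadjusted p under 0.05, 10 and 1 for 12 against 3 months, and 0 and 4 for 24 against 12 months. This was 17.9%, 39.3% and 14.3% of the list, against 14.9%, 14.3% and 6.43% of all genes. Of genes with a mean of at least 1 FPKM, 2524 of 13446, 2477 of 13443 and 1139 of 13444 were under 0.05. The median log2 fold changes of the list were 0.24, 0.22 and -0.08, against 0.05, 0.08 and -0.03 for all genes with a mean of at least 1 FPKM. The mesenchymal filament Vim had means of 8.66 ± 1.17, 12.7 ± 1.54 and 11.8 ± 1.58 FPKM at 3, 12 and 24 months (SD, n = 5), with no overlap between 3 and 12 months (limma adjusted p = 0.0805). The repressor Zeb1 had 4.58 ± 0.348 and 5.99 ± 1.07 FPKM at 3 and 24 months (unadjusted p = 0.0204), and the early response gene Klf10 9.49 ± 2.16 and 6.62 ± 1.03 FPKM (unadjusted p = 0.0160). Col4a1, a basement membrane collagen, had a log2 fold change of -0.48 (unadjusted p = 0.0573).

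**Figure D5:**
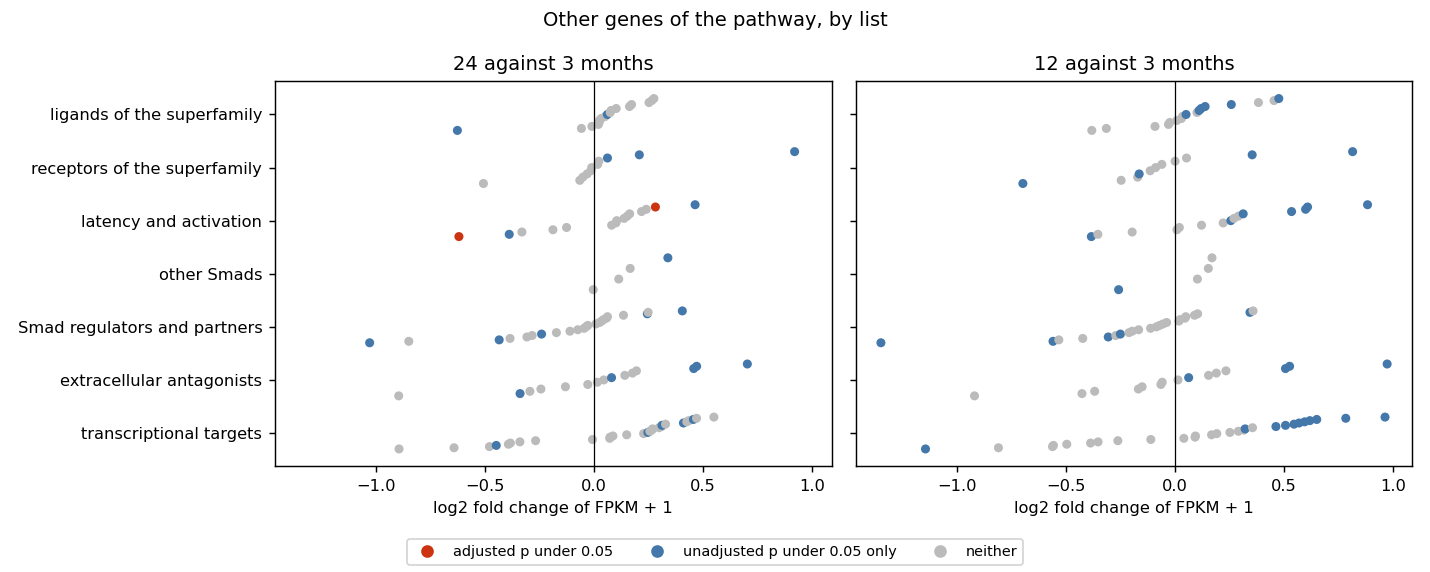
Log2 fold change of FPKM + 1 (horizontal axis) of each gene in the 7 pathway lists for 24 against 3 and 12 against 3 months. Red points, Itgb6 and Ltbp2 at 24 against 3 months, had an adjusted p under 0.05, and blue points only an unadjusted one.

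No cell type marker passed an adjusted p of 0.05 in any comparison by limma. Counts at an unadjusted p under 0.05 for 24 against 3 months follow, where 14.9% of all genes were found. Leukocyte markers summed to between 12.2 and 25.2 FPKM at 3 months, between 22.0 and 44.0 at 12 months and between 21.9 and 36.4 at 24 months, and 6 of 10 were higher and 0 lower (median log2 fold change 0.54). Fibroblast and pericyte markers summed to between 24.0 and 40.2, between 33.9 and 53.2 and between 31.5 and 56.6 FPKM, with 3 of 8 higher (median 0.39). Endothelial markers had 1 of 8 higher (median 0.07), podocyte markers 0 of 6 (median -0.13), and proximal tubule markers 1 of 8 lower (median -0.06). Distal nephron and collecting duct markers had 1 of 10 lower (median -0.11), and markers of tissue beside the kidney 1 of 10 higher (median 0.16). No marker of these lists was at 0 in all mice. Tgfb1 and Tgfb2 are made by several of these cell types, and the part of their numbers in the values above was not tested. In whole tissue, fewer cells of a type and less RNA per cell cannot be told apart.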

How the data were processed

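Kidney RNA of 15 mice was sequenced after removal of ribosomal RNA per the labels. The study's methods describe mRNA purified by oligo(dT) instead, which would bear on circular and intronic RNA, and the sources used here do not settle which was done. The authors used Cutadapt for trimming, Bowtie2 and HISAT2 for mapping to the mouse genome, and StringTie for assembly, FPKM and mean coverage of each transcript. TopHat is also named in the submitters' processing notes. The coordinates are of GRCm38. The deposited coverage (signal) divided by the deposited FPKM gave the aligned bases. The authors also deposited estimated counts of circular RNAs, which were rounded here. Because StringTie divides reads between overlapping transcripts, transcripts of 1 gene are not measured independently.

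Genes above 0 in at least 1 mouse compared were fitted together with limma 3.58.1 in R 4.3.3 (trend = TRUE, pseudocount 1, Benjamini-Hochberg adjusted p under 0.05), and transcripts likewise. The study names DESeq2 and edgeR, which need counts. Circular RNAs above 0 in at least 5 of 10 mice were tested with edgeR 4.0.16 (TMM, quasi-likelihood), with DESeq2 1.42.0 as the alternative. Ratios and shares were compared by exact permutation of 10 mice. On simulated data, limma called 63% of genes changed by a log2 fold of 1 at 24 against 3 months (31749 genes) and 11% of transcripts changed as much (124702 transcripts), so calls on single transcripts were few even for true changes of that size. The changed genes and transcripts were drawn from those with a mean log2(FPKM + 1) above 1 at 3 months. These shares therefore do not cover Tgfb2, Tgfb3 or transcripts below that level. Intervals from counting were not computed, since the values are not whole reads. P-values set a difference between ages against the spread between mice.

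The genes named are the 10 members, their transcripts with a mean of at least 0.1 FPKM, the 2 genes most like each member, the 5 most abundant circular RNAs, and of each list those with an adjusted p under 0.05 or, where a list had none, the 2 lowest p-values upward and downward. Itgb6 and Ltbp2 were named by that rule, and circRNA3426, circRNA5333, circRNA6919 and circRNA542 after their values were seen. The members and lists were chosen with earlier results of these data known. The sample titles begin with 3M at every age, and the age label was used.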

Additional observations from a re-analysis of the deposited data

Results flagged for a closer look

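In 39 checks of 5 mice each (10 genes and 3 ratios at 3 ages), 4 values stood apart from the other mice of their age, where chance gives about 1 in 20. Smad3 was 9.23 FPKM in 3-month mouse 5, against 3.89 to 4.82 FPKM in the other mice of that age, and 12.0 FPKM in 12-month mouse 20, against 3.91 to 5.61 FPKM. Multiplied by transcript length and summed, Smad3 was at 208.3 in mouse 20, within the 113.2 to 222.9 of the 13 mice other than 5 and 20. Mouse 5 was above that range, at 235.9. In the 24-month group, mouse 33 stood apart for 2 genes. Its Tgfbr2 was 6.31 FPKM, against 11.6 to 12.2 FPKM, and its Tgfb1 was 8.63 FPKM, against 6.05 to 6.63 FPKM.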

How the results depend on the processing

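No member had an adjusted p under 0.05 under any of the 9 alternatives to the values, filter or model or with any mouse left out. The filter on a mean of at least 1 FPKM left Tgfb3 untested in all 3 comparisons and Tgfb2 in both with 3 months. No circular RNA of a member had an adjusted p under 0.05 under DESeq2, a looser filter or with any mouse left out. The lowest adjusted p of a member was 0.0821 (Tgfb2, 12 against 3 months, 15 mice in 1 fit). The number of members with an unadjusted p under 0.05 for 24 against 3 months was 0 among genes with a mean of at least 1 FPKM, which leaves Tgfb2 and Tgfb3 untested. It was 0 with all class codes, 2 with the 15 mice in 1 fit, 3 with length-weighted sums (a scale added after seeing the data) and 1 to 3 with a mouse left out. For 12 against 3 months it was 1 with the same filter, 1 after median-ratio scaling and 3 with length-weighted sums, where Tgfbr1 was added. For 24 against 12 months it was 1 with the filter, 1 with the 15 mice in 1 fit, 1 with all class codes, and 0 to 1 with a mouse left out. Member transcripts under 0.05 numbered 1 with the filter, 1 with the robust variance prior, and 1 to 4 with a mouse left out.

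Small differences changed sign. For 24 against 3 months median-ratio scaling gave -0.094 for Tgfbr1, -0.057 for Smad2 and -0.076 for Smad4, known transcripts alone gave -0.15 for Tgfbr1, and length weighting gave -0.36 for Smad4. For 12 against 3 months median-ratio scaling gave -0.10 for Tgfbr2, -0.048 for Smad2, -0.038 for Smad3 and -0.063 for Smad4, TPM gave -0.033 for Tgfbr2, all class codes gave -0.0083 for Smad2, and length weighting gave 0.46 for Tgfbr1, -0.032 for Tgfbr3 and -0.12 for Smad4. For 24 against 12 months TPM gave 0.037 for Smad2 and 0.032 for Smad4, known transcripts gave -0.18 for Smad3 and 0.0054 for Smad4, all class codes gave 0.24 for Smad2, and length weighting gave 0.0033 for Tgfb2 and -0.069 for Tgfbr1. Leaving out a mouse gave -0.056 to 0.056 (Tgfbr1), -0.0036 to 0.28 (Smad3) and -0.022 to 0.11 (Smad4) for 24 against 3 months, -0.19 to 0.25 (Tgfbr2), -0.17 to 0.25 (Smad3) and -0.0028 to 0.14 (Smad4) for 12 against 3 months, and -0.061 to 0.0017 (Smad2), -0.080 to 0.27 (Smad3), -0.076 to 0.039 (Smad4) and -0.0084 to 0.27 (Smad7) for 24 against 12 months. The percent of ligand FPKM from Tgfb1 differed by 3.60 points with all class codes and by -3.03 to 1.55 with a mouse left out, and the log2 ratio of Tgfbr3 to Tgfbr2 by -0.76 to -0.31. Apart from the length-weighted sums, which add up fragments, the cause of these changes was not tested. Tgfb2 and Tgfb3 rest on the fewest bases, and what depth allows to be detected was not tested. No paired analysis was possible because the ages share no replicate numbers.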
